A study of Homo sapiens with 8 samples.

Results

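The genes described here are 9 transcription factor genes of neuronal and sensory differentiation: the neurogenins NEUROG1, NEUROG2 and NEUROG3, the NeuroD genes NEUROD1, NEUROD2 and NEUROD4, the POU4 homeodomain genes POU4F1 and POU4F2, and the zinc finger gene INSM1. Their probes were found by gene symbol, with no threshold on a signal, but the genes were chosen with earlier results of these data known. They are read by 10 of the 47322 probes of the array, 2 of them for NEUROD2 and 1 for each of the others, and are 9 of the 31426 genes that the files name. RNA was measured on Illumina HumanHT-12 bead arrays in SH-EP2 cells, an epithelial-like human neuroblastoma line, and in SH-SY5Y cells, a neuroblastic line, both derived from the parental line SK-N-SH. Cells of each line were lentivirally transduced with a TRPM7 shRNA or, as control, with a scrambled shRNA, so that all 4 groups carry an integrated vector, and each group has 2 arrays. TRPM7 is a cation channel fused to a kinase. The arrays hold 1 TRPM7 shRNA, transduced cells were not described as clones, and a difference between the lines rests on 1 line of each kind. The lines were also grown in different culture media, so line and medium cannot be told apart. Nothing says whether the replicates were separate cultures, so the p-values measure only the spread between these arrays, which may be technical.

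Proneural factors of the basic helix-loop-helix (bHLH) type bind E-boxes, the motif CANNTG, as dimers with an E protein, and push progenitor cells out of the cycle and into a neuronal fate. Neurogenins act early, NeuroD factors act later in the same lineage, and ID and HES proteins oppose them. In the neural crest, from which neuroblastoma arises, NEUROG2 and NEUROG1 are known for starting sensory neurogenesis, while neuroblastoma is closest to the sympathetic lineage. POU4F1, also called BRN3A, and POU4F2 follow the neurogenins in sensory neurons and in the retina. INSM1 encodes a transcriptional repressor that promotes neuroendocrine differentiation.

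NEUROG2 and POU4F1 are the members with a signal above background in a whole group, and the 250 bases before the start of each gene are shown because E-boxes are the sites that bHLH factors read. The sequences are from RefSeq (GRCh38.p14), and the set of windows used here covers 8 of the 9 genes, all but INSM1. Capitals mark E-boxes (CANNTG, a motif that reads the same on both strands). The NEUROG2 window is chr4:112516181-112516430 and the POU4F1 window chr13:78603553-78603802, both on the minus strand and both written 5′ to 3′.
NEUROG2: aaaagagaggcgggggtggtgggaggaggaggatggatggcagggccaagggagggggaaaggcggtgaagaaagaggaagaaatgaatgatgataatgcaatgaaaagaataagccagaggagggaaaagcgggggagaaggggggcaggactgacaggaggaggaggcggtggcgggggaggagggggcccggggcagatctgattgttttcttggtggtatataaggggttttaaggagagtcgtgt
POU4F1: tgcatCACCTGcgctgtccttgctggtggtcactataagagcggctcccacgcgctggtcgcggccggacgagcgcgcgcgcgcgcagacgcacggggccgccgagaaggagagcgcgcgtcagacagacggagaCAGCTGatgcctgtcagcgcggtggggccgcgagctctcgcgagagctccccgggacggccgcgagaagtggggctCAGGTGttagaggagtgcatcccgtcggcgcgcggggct
The NEUROG2 window held 0 E-boxes, as did 38.2% of the 35116 windows in the table. The POU4F1 window held 3, the 3 runs of capitals above. NEUROD2 also had 3, NEUROD4 had 2, NEUROG3 had 1, and NEUROG1, NEUROD1 and POU4F2 had 0. At least 1 E-box stood in 61.8% of all windows, so that holding one sets no member apart, and a match of letters is not a binding site.

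Most of the members gave no signal above background in either line. A probe counts as detected on an array where its detection p-value, which ranks its signal among the negative control beads, is under 0.05. NEUROG2 was detected on 8 of 8 arrays and POU4F1 on 6. INSM1 was detected on 2 arrays, NEUROD1 on 1 and the NEUROD2 probe ILMN_1702217 on 1. The other 5 probes, those of NEUROG1, NEUROG3, NEUROD4 and POU4F2 and the second NEUROD2 probe (ILMN_1908654), were detected on none. The lowest signal that counted as detected lay between 109.3 and 124.8 on the arrays, and every signal of the 8 dim probes lay between 93.3 and 124.4. A probe below this limit has only an upper bound, so it was not detectable here and may still be expressed.

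**Figure D1:**
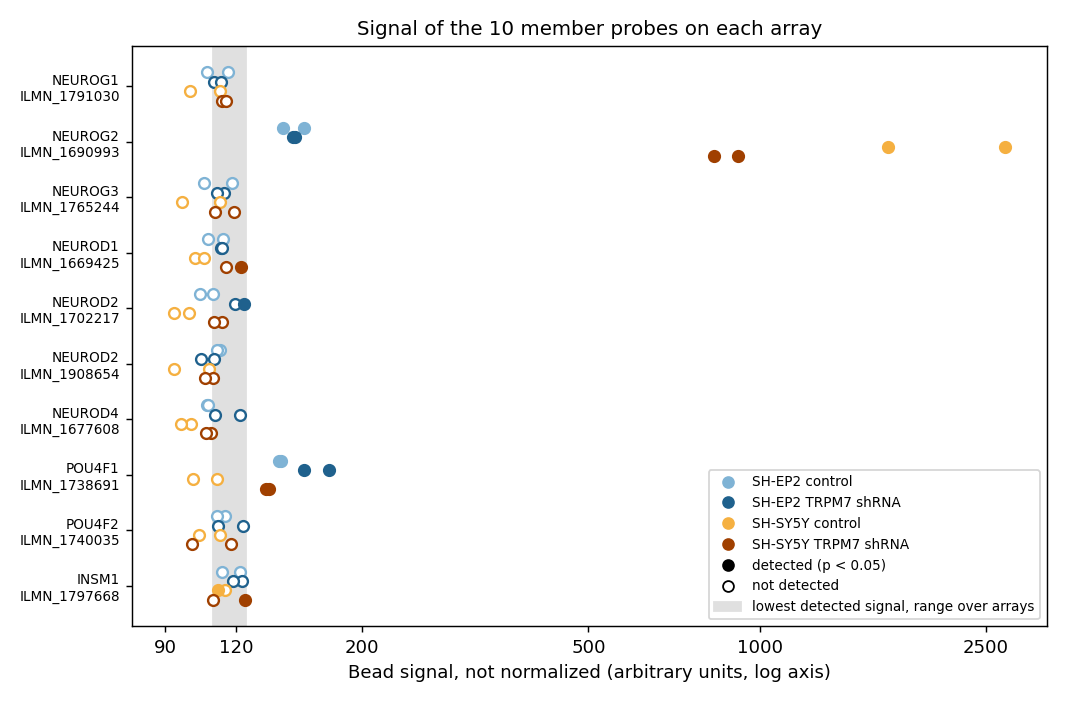
Bead signal (not normalized, arbitrary units, log axis) of the 10 probes on each of the 8 arrays, coloured by cell line and shRNA, with filled points where the probe was detected and open points where it was not. The grey band spans the lowest detected signal of the 8 arrays, and NEUROG2 in SH-SY5Y cells, at 831 to 2701, stands far to the right of it.

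Noradrenergic markers were detected more widely in SH-SY5Y cells and mesenchymal markers in SH-EP2 cells, but neither set was confined to either line. Of 9 markers of noradrenergic neuroblastoma cells, 8 were detected on both arrays of each SH-SY5Y group and 4 on both arrays of each SH-EP2 group, with TH undetected throughout. Of 9 mesenchymal markers, 9 were detected in SH-EP2 cells, against 7 in SH-SY5Y cells. VIM was higher in control SH-SY5Y than in control SH-EP2 cells (log2 difference 0.19, adjusted p = 0.0356, limma), and the other mesenchymal markers were lower. The Schwann cell precursor genes SOX10 and FOXD3 were undetected on all arrays. Of 5 leukocyte genes, 3 were detected on both control SH-EP2 arrays and 1 on both arrays of every other group. CD14 was among them and fell in TRPM7 shRNA SH-EP2 cells (log2 fold change -2.03, adjusted p = 3.22e-05). TRPM7 itself was undetected on every array, so the knockdown cannot be read here. Between 19331 and 20904 probes were detected per array, and the arrays of a group had a Pearson correlation of 0.9815 to 0.9845 across probes.

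NEUROG2, the neurogenin that starts neurogenesis in the neural tube and in early sensory precursors, differed between the lines more than it differed with the shRNA. In SH-SY5Y cells it lay far above background, and it fell in TRPM7 shRNA cells. On the control SH-SY5Y arrays its signals were 2701 and 1681, and on the TRPM7 shRNA arrays they were 831 and 918. All 4 values were thus well above the detection limit, and both shRNA arrays were below both control arrays, as groups did not overlap for 39.1% of all probes in this comparison. On the SH-EP2 arrays the signals were 158 and 145 in control cells and 151 and 152 in TRPM7 shRNA cells. The SH-EP2 groups overlapped, a little above the detection limit. These are bulk cultures, in which fewer cells with NEUROG2 and less NEUROG2 RNA per cell cannot be told apart.

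After background correction, quantile normalization and conversion to log2, the NEUROG2 level in SH-SY5Y cells was 11.25 and 10.95 on the control arrays, and 9.47 and 9.45 on the TRPM7 shRNA arrays. The difference of the means, -1.64 on the log2 scale, has a standard error of 0.14 and a 95% interval of -1.94 to -1.34, which is a 3.11-fold decrease. The adjusted p was 6.25e-07 (limma, Benjamini-Hochberg over all probes). In SH-EP2 cells the levels were 5.32 ± 0.15 (SD, n = 2) in control and 5.19 ± 0.071 (SD, n = 2) in TRPM7 shRNA cells. That difference was -0.13, with an interval of -0.43 to 0.17 (adjusted p = 0.813), so that a decrease of the size seen in SH-SY5Y cells lies outside it. The change in SH-SY5Y minus that in SH-EP2 cells, tested as an interaction, was -1.51 (standard error 0.20, interval -1.93 to -1.09, adjusted p = 0.000202).

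Control SH-SY5Y cells had 55.0-fold more NEUROG2 signal than control SH-EP2 cells on the normalized scale (log2 difference 5.78, standard error 0.14, adjusted p = 4.04e-17). The TRPM7 shRNA SH-SY5Y cells, at 9.46, were still 4.14 above control SH-EP2 cells (adjusted p = 5.56e-15). From low to high, the 4 groups were TRPM7 shRNA SH-EP2, control SH-EP2, TRPM7 shRNA SH-SY5Y and control SH-SY5Y, and only the SH-EP2 neighbours did not differ beyond their spread. The size of the line difference depended on the background correction and was 3.91 with none, while its call did not change. The decrease in SH-SY5Y cells and the line difference use the same control SH-SY5Y arrays.

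The NEUROG2 decrease in SH-SY5Y cells kept its direction under all 19 alternative settings, between -1.79 and -1.49, and its call under 17. It did not pass with eBayes without an intensity trend (adjusted p = 0.0524) or with a per-probe test (adjusted p = 0.0775). Without control replicate 1 the decrease was -1.49, and without control replicate 2 it was -1.79, and both passed. Cell state markers were measured on the same arrays. The summed signal of the 9 noradrenergic markers, not normalized, lay between 20738 and 26482 on the control arrays and between 18648 and 19628 on the TRPM7 shRNA arrays of SH-SY5Y cells. Of the 9, DBH (log2 fold change -1.20, adjusted p = 0.000637) and ISL1 (-0.45, adjusted p = 0.0144) fell and 0 rose, and the median normalized level of the 9 was 10.88 in control and 10.87 in TRPM7 shRNA cells. Of the 9 mesenchymal markers, SNAI2 (-2.77, adjusted p = 1.24e-08) and VIM (-0.30, adjusted p = 0.0176) fell and 0 rose, and their summed signal lay between 13309 and 17551 on the control arrays and between 14447 and 15359 on the TRPM7 shRNA arrays. The part of these markers in the NEUROG2 result was not tested.

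**Figure D2:**
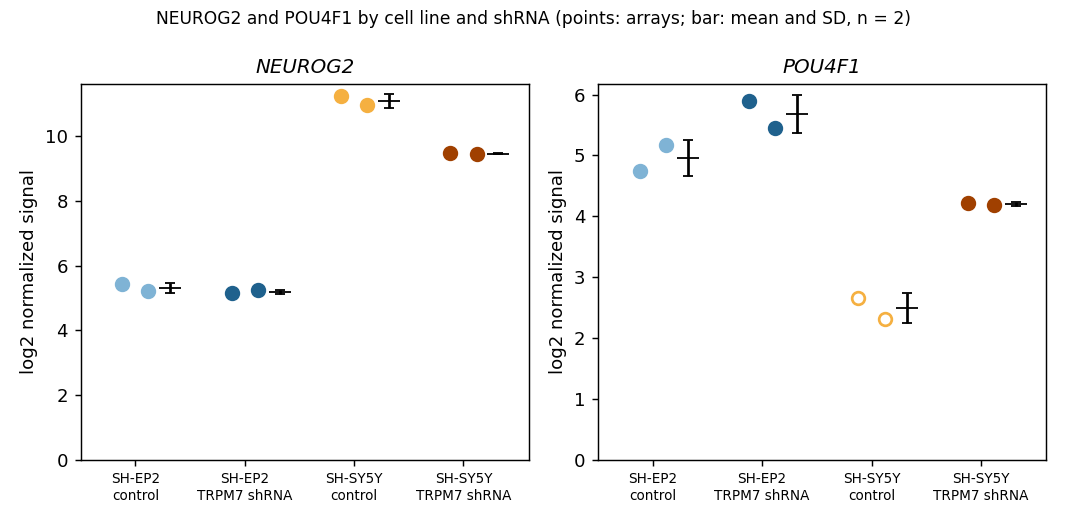
Log2 normalized signal of NEUROG2 (left) and POU4F1 (right) in the 4 groups, with a point per array, open where the probe was undetected, and a bar for the mean and SD of 2 arrays. In SH-SY5Y cells NEUROG2 goes from 11.10 in control to 9.46 in TRPM7 shRNA cells, and it stays between 5.14 and 5.43 in SH-EP2 cells, while POU4F1 is undetected in control SH-SY5Y cells alone.

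POU4F1, a homeodomain factor of sensory neurons that is expressed after the neurogenins, showed the opposite order of the lines. Its signals were 143 and 144 on the control SH-EP2 arrays, 175 and 158 on the TRPM7 shRNA SH-EP2 arrays, 111 and 101 on the control SH-SY5Y arrays and 135 and 137 on the TRPM7 shRNA SH-SY5Y arrays. It was undetected in control SH-SY5Y cells (detection p of 0.127 and 0.325) and detected on all other arrays. In both lines the TRPM7 shRNA arrays were thus above the control arrays.

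In TRPM7 shRNA SH-SY5Y cells POU4F1 rose at least 2.06-fold with the RMA background. This bound sets its mean of 4.20 ± 0.031 (SD, n = 2) on the log2 scale against the lowest detected signal of the control arrays. The measured control mean, 2.49 ± 0.24 (SD, n = 2), lies in the background. The adjusted p of 0.00834 (limma) belongs to the fitted difference of 1.71, which uses that control mean, and not to the bound. In SH-EP2 cells, where both groups were detected, POU4F1 was 4.96 ± 0.29 (SD, n = 2) in control and 5.68 ± 0.31 (SD, n = 2) in TRPM7 shRNA cells. The arrays of these groups did not overlap, as was the case for 42.9% of all probes in this comparison. The difference of 0.72 (interval -0.0016 to 1.45) did not pass (adjusted p = 0.4). The changes in the 2 lines were not shown to differ, with an interaction of 0.99 (standard error 0.49, interval -0.034 to 2.01, adjusted p = 0.506).

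Control SH-EP2 cells had at least 3.48-fold more POU4F1 signal than control SH-SY5Y cells. The fitted difference passed (adjusted p = 8.7e-06, limma), and this call held under all 17 alternatives that could be computed. The bound belongs to the RMA background: the fitted difference (SH-SY5Y minus SH-EP2), -2.47 as reported, was -1.17 with neqc, -0.55 with normexp and -0.36 without background correction. The difference of 0.76 between TRPM7 shRNA SH-SY5Y and control SH-EP2 cells did not pass (adjusted p = 0.129). The order was thus control SH-SY5Y, TRPM7 shRNA SH-SY5Y, control SH-EP2 and TRPM7 shRNA SH-EP2, and only the lowest neighbours in it differed.

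The POU4F1 increase in SH-SY5Y cells depended on the processing. It kept its direction under 19 of 19 alternatives and its call under 10. The fitted difference, 1.71 in the reported setting, was 0.76 with neqc (adjusted p = 0.0723), 0.35 with normexp (adjusted p = 0.0756) and 0.22 without background correction (adjusted p = 0.106). Without control replicate 2 it was 1.56 (adjusted p = 0.0569), and without TRPM7 shRNA replicate 1 or 2 it was 1.69 (adjusted p = 0.0738) or 1.71 (adjusted p = 0.0607). Array background moved the same way: the median signal over all probes was 111.5 and 104.7 on the control SH-SY5Y arrays and 116.8 and 117.0 on the TRPM7 shRNA arrays, and the lowest detected signal was 115.6 and 109.3 against 120.7 and 120.4. The POU4F1 signals of the shRNA arrays were above, and those of the control arrays below, the detection limit of their own array. What part of the increase comes with background was not tested.

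**Figure D3:**
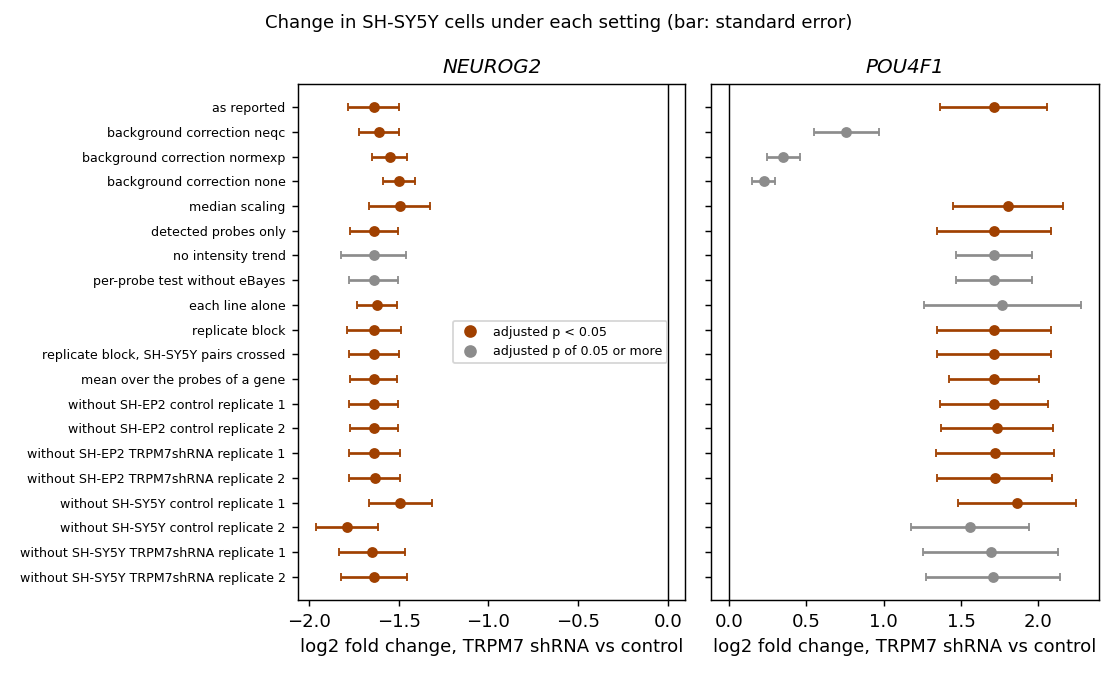
Log2 fold change of NEUROG2 (left) and POU4F1 (right) with TRPM7 shRNA in SH-SY5Y cells, as reported and under 19 alternatives, with the standard error as a bar and grey points where the adjusted p was 0.05 or more. NEUROG2 stays between -1.79 and -1.49, whereas POU4F1, whose control level is in the background, ranges from 0.22 to 1.86.

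The other neurogenins stayed in the background. NEUROG1, which with NEUROG2 starts sensory neurogenesis, and NEUROG3, the factor of pancreatic endocrine precursors, were detected in 0 of 16 array values, with signals of 96.5 to 118.9. The NEUROG2 signal of SH-SY5Y cells was thus not accompanied by a detectable signal of either paralog.

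The NeuroD genes, which act downstream of neurogenins in neurons and endocrine cells, were detected in 2 of 32 array values, and signals ranged from 93.3 to 124.2. NEUROD1 had signals of 101.6 and 105.6 on the control SH-SY5Y arrays and of 122.5 (detected) and 115.2 on the TRPM7 shRNA arrays. The fitted levels of these groups overlapped after normalization, and their difference did not pass (adjusted p = 0.738). The NEUROD2 probe ILMN_1702217 had signals of 109.4 and 103.6 on the control SH-EP2 arrays and of 119.5 and 124.2 (detected) on the TRPM7 shRNA arrays. The groups did not overlap, as was the case for 42.9% of all probes in this comparison. The unadjusted p was 0.00987, but the adjusted p was 0.168 (limma). The second NEUROD2 probe was undetected on the same arrays. Its groups did not overlap either, and its fitted difference had the opposite sign (adjusted p = 0.517). NEUROD4 had its highest signal, 122.1, on a TRPM7 shRNA SH-EP2 array, where it was undetected (adjusted p = 0.619).

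POU4F2, the paralog of POU4F1 in retinal ganglion cells, was undetected on all arrays, at 100.4 to 123.3, and so did not follow POU4F1 above the detection limit in SH-EP2 cells. INSM1 was near the limit. Its signals were 114.9 (undetected) and 111.6 (detected) on the control SH-SY5Y arrays, and 109.1 (undetected) and 124.4 (detected) on the TRPM7 shRNA arrays. By signal the shRNA arrays lay on either side of the control arrays. After normalization, on the log2 scale, they were at 2.06 and 3.31, against 3.02 and 3.51 on the control arrays. The difference did not pass (adjusted p = 0.764, limma). On the SH-EP2 arrays INSM1 had signals of 113.5 to 122.8 and was undetected.

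Over all members, 2 of 10 probes passed in SH-SY5Y cells, NEUROG2 lower and POU4F1 higher, beside 2.11% of all probes, or 5.05% of those detected on both arrays of a compared group. With 2 probes above background, this share rests on those 2 genes. The median fitted difference of the 10 probes, most of them in the background, was 0.038 in SH-SY5Y cells, beside 0.0048 over all probes. In SH-EP2 cells 0 of 10 passed in limma, and 0 in the per-probe test, beside 3.02% of all probes, and 1 had an unadjusted p under 0.05, beside 12.6% of all. The interaction passed for 1 of 10 probes, NEUROG2, beside 1.4% of all. Between the control groups 2 of 10 passed, NEUROG2 higher and POU4F1 lower in SH-SY5Y cells, and 26.2% of all probes did.

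The patterns of NEUROG2 and POU4F1 over the 8 arrays were set beside those of the 20566 other detected probes with a symbol. CUX2 (Pearson r of 0.9991), FAM20B (0.9979) and PCBP3 (0.9979) were closest to NEUROG2. CUX2, a cut homeodomain factor of neurons, fell in TRPM7 shRNA SH-SY5Y cells (log2 fold change -1.40, adjusted p = 0.0216), whereas FAM20B (-0.24, adjusted p = 0.198) and PCBP3 (-1.19, adjusted p = 0.18) did not pass. A total of 1642 probes had an r over 0.95 with NEUROG2, and 86 with POU4F1. Nearest to POU4F1 were FLJ20489 (0.989), EVI1, now named MECOM (0.988), and ALDH2 (0.987). EVI1, a zinc finger factor, rose in TRPM7 shRNA SH-SY5Y cells (1.89, adjusted p = 1.12e-07), as did FLJ20489 (1.22, adjusted p = 0.0214), while ALDH2 was at 0.30 (adjusted p = 0.236). These r are descriptions: the 8 points of each fall into 2 lines and share their arrays and normalization.

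The partners of the proneural factors were present in both lines. The dimer partners TCF3, TCF4 and TCF12, which encode E proteins, were detected in every group. Of the 13 bHLH relatives and E proteins, 5 were detected on both arrays of a compared group in SH-SY5Y cells, of which 1 fell and 0 rose. Over all genes so detected, 2.11% rose and 3.4% fell in SH-SY5Y cells, and 4.04% and 4.13% in SH-EP2 cells. The gene that fell was TCF4, from 10.98 ± 0.071 to 10.38 ± 0.019 (SD, n = 2 per group), a difference of -0.60 (standard error 0.10, adjusted p = 0.00147). TCF3 (-0.26, adjusted p = 0.549) and TCF12 (0.16, adjusted p = 0.675) did not pass. In SH-EP2 cells 5 were detected and 0 passed in limma or in the per-probe test, with TCF4 at -0.20 (adjusted p = 0.436), and 0 had an unadjusted p under 0.05.

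Among 11 inhibitors of proneural factors, 7 were detected in each line, of which 2 fell and 0 rose in each. ID proteins bind E proteins and keep them from DNA. ID1 fell in SH-SY5Y cells from 10.32 ± 0.090 to 9.53 ± 0.00041 (SD, n = 2 per group), a difference of -0.79 (adjusted p = 1.76e-05). Its second, dimmer probe was at -0.35 (adjusted p = 0.754), and the mean of the 2 probes did not pass (adjusted p = 0.0947). In SH-EP2 cells ID1 was at 0.037 (adjusted p = 0.934). ID3 fell in SH-SY5Y (-0.59, adjusted p = 0.000551) and in SH-EP2 cells (-0.50, adjusted p = 0.00225), while ID2 passed in neither. The ID3 call in SH-EP2 cells was lost without control replicate 1 (-0.43, adjusted p = 0.0714) or TRPM7 shRNA replicate 1 (-0.47, adjusted p = 0.0519). HES4, a HES family repressor, fell in SH-EP2 cells from 11.49 ± 0.16 to 9.97 ± 0.048 (SD, n = 2 per group), a difference of -1.52 (standard error 0.10, adjusted p = 1.74e-08). In SH-SY5Y cells it was at 0.0017 (adjusted p = 0.997). HES1 and HEY1, targets of Notch, did not pass in SH-SY5Y cells (-0.60, adjusted p = 0.52, and 0.41, adjusted p = 0.24).

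Of 21 genes described as targets of proneural factors, 14 were detected in SH-SY5Y cells, of which 2 rose and 2 fell. Their median difference was -0.036, beside 0.019 over all detected genes. EBF3, a COE factor of differentiating neurons, rose from 3.0 ± 1.12 to 5.97 ± 0.052 (SD, n = 2 per group; log2 fold change 2.97, standard error 0.54, adjusted p = 0.00321). It was detected on 1 of 2 control arrays, and without control replicate 2 the difference was 2.17 and did not pass (adjusted p = 0.0847), while without control replicate 1 it was 3.74. Its size depended on the background correction, at 1.61 with neqc, 0.84 with normexp and 0.58 with none, where the call held. DCX, a microtubule protein of young neurons, rose by 0.93 (adjusted p = 0.0359), but its second probe was undetected and the mean of both probes was at 0.086 (adjusted p = 0.96). STMN2, a neuronal stathmin, fell by 0.58 (adjusted p = 0.0223) and its second probe fell by 0.60 (adjusted p = 0.0458). HES6, which opposes HES1, fell by 0.40 (adjusted p = 0.0343). Without any 1 of the 4 SH-SY5Y arrays the calls of DCX (0.89 to 0.96), STMN2 (-0.65 to -0.52) and HES6 (-0.47 to -0.33) were each lost, and HES6 lost its call without any SH-EP2 array as well (adjusted p from 0.0519 to 0.0564). The delta ligand DLL3 (-0.082, adjusted p = 0.855), RND2 (0.16, adjusted p = 0.818) and TUBB3 (-0.0051, adjusted p = 0.99) were detected on all SH-SY5Y arrays and did not pass. In SH-EP2 cells 7 were detected and 1 fell, HES6 (-0.59, adjusted p = 0.00117).

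**Figure D4:**
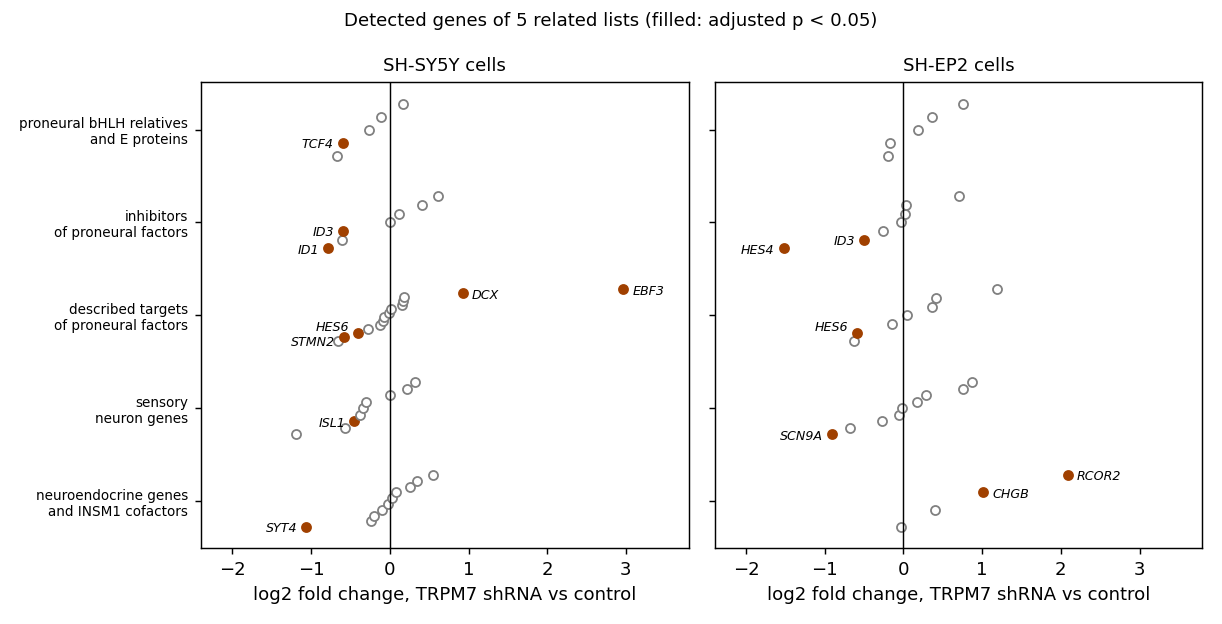
Fitted log2 fold change with TRPM7 shRNA of the genes of 5 related lists that were detected on both arrays of a compared group, in SH-SY5Y (left) and SH-EP2 cells (right), a point per gene and filled points where the adjusted p was under 0.05. Filled points are 9 on the left and 6 on the right, and in both panels most points are open and near 0. RCOR2 was undetected in control SH-EP2 cells, so its position is a fitted value.

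Of 22 sensory neuron genes, 21 have a probe and 9 were detected in each line. ISL1, a LIM homeodomain factor of sensory and sympathetic neurons, fell in SH-SY5Y cells from 12.68 ± 0.0076 to 12.23 ± 0.091 (SD, n = 2 per group; -0.45, adjusted p = 0.0144), and no other gene of the list passed there. Its call was lost without control replicate 1 (-0.46, adjusted p = 0.0717), control replicate 2 (-0.44, adjusted p = 0.105) or TRPM7 shRNA replicate 2 (-0.39, adjusted p = 0.169). The median over the 9 was -0.34, beside 0.019 over all detected genes. This median is the value of RUNX3, which did not pass (adjusted p = 0.855, limma), and a shift of the list as a whole was not tested. The homeobox gene TLX3 was at -1.20 (adjusted p = 0.297). In SH-EP2 cells the sodium channel gene SCN9A fell (-0.91, adjusted p = 0.0299), a call that 15 of 18 alternatives did not keep. Among these were the loss of any 1 SH-EP2 array (-1.02 to -0.81) or of TRPM7 shRNA SH-SY5Y replicate 1 (-0.90) or 2 (-0.89). Over all 18 alternatives the SCN9A difference ranged from -1.02 to -0.12, and the second SCN9A probe was undetected in SH-EP2 cells. POU4F3, the third POU4 gene, was undetected in both lines.

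Of 14 neuroendocrine genes and INSM1 cofactors, 13 have a probe and 10 were detected in SH-SY5Y cells. SYT4, a synaptotagmin of secretory vesicles, fell there from 12.88 ± 0.043 to 11.82 ± 0.038 (SD, n = 2 per group; -1.06, standard error 0.16, adjusted p = 0.000589), and 0 rose. The granins CHGA (-0.018, adjusted p = 0.985) and CHGB (0.075, adjusted p = 0.95) and INSM2, the paralog of INSM1 (0.55, adjusted p = 0.165), did not pass. INSM2 was detected in SH-SY5Y cells, at 11.37 ± 0.073 (SD, n = 2) in control cells, and undetected in SH-EP2 cells. In SH-EP2 cells 4 were detected, and 2 rose. RCOR2, a corepressor subunit, was undetected in control cells and detected on both TRPM7 shRNA arrays. With the RMA background this was a rise of at least 3.0-fold. The fitted RCOR2 difference, 2.09 as reported (adjusted p = 3.18e-06, limma), was 1.00 with neqc, 0.46 with normexp and 0.30 without background correction, all of which passed. CHGB rose from 3.53 ± 0.29 to 4.54 ± 0.67 (SD, n = 2 per group; 1.01, adjusted p = 0.011), a call that 9 of 18 alternatives kept and that was lost without control replicate 1 (0.81, adjusted p = 0.159) or TRPM7 shRNA replicate 1 (0.54, adjusted p = 0.233). CHGA, undetected in both SH-EP2 groups, also passed (adjusted p = 0.0344), and no fold is given for it.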

How the data were processed

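RNA of SH-EP2 and SH-SY5Y cells with scrambled or TRPM7 shRNA was measured on 8 Illumina bead arrays, which the labels place in groups of 2. Bead intensities on a linear scale, not normalized between arrays, and a detection p-value for each were deposited, as the authors exported them from GenomeStudio 2011.1. Steps of 0.001299 in the detection p-value correspond to 770 negative control beads. Median signals were 104.7 to 119.9, and with 2 arrays a group the number of arrays sets the precision.

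The RMA background model was applied to each array (background mean 98.3 to 111.1, SD 6.71 to 8.05), followed by quantile normalization and log2. All 47322 probes were kept. limma 3.58.1 in R 4.3.3 was fitted to the 4 groups, with eBayes following an intensity trend, two-sided tests, Benjamini-Hochberg adjustment over all probes and a threshold of 0.05. For the 9 genes every probe is reported, and for other genes the brightest one. A group whose arrays both failed to detect a probe enters a fold as a bound, taken from the lowest detected signal on each array or the probe's own signal if higher. In the related lists up to 5 genes that passed are named per list and comparison, and genes named without a call were chosen after their values were seen. The 9 genes, the lists and the markers were chosen with earlier results of these data known. On simulated arrays with 200 probes changed by a log2 of 2, the fit recovered 196 in SH-SY5Y and 200 in SH-EP2 cells, with 28 and 26 false calls. In both lines the false calls were a larger share of the calls than the threshold of 0.05, so the adjusted p-values were too small there. The changed probes were drawn only from those well above background in control cells. The recovery therefore does not cover dim probes, such as that of POU4F1.

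Alternatives changed the background correction (neqc with offset 16, normexp with offset 50, none), the scaling (median), the probes kept (those detected on 2 or more arrays), the test (eBayes with no trend, a per-probe test, each line fitted alone, a block for the replicate number) and the probe summary (mean per gene), and left out each array in turn. A block with SH-SY5Y pairs crossed was added after seeing the data. Other experiments of the study were not analysed here.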

Additional observations from a re-analysis of the deposited data

Results flagged for a closer look

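Differences between the lines in the response to TRPM7 shRNA were tested as interactions (SH-SY5Y minus SH-EP2, log2 scale, limma, adjusted over all probes). Of the genes named, 12 passed, beside 1.4% of all probes. Genes of the lists were named because they passed a knockdown comparison on these same arrays, which favours such calls. The count of 12 is thus not a result about these genes. NEUROG2 differed by -1.51 (standard error 0.20, adjusted p = 0.000202), with both SH-SY5Y shRNA arrays below their controls and overlapping groups in SH-EP2 cells. HES4 differed by 1.52 (adjusted p = 2.87e-06) and ID1 by -0.83 (adjusted p = 0.000862), where both genes were detected in both lines. ISL1 differed by -0.63 (adjusted p = 0.0224), RCOR2, undetected in control SH-EP2 cells, by -2.33 (adjusted p = 1e-04), STMN2 by -0.85 (adjusted p = 0.0241) and SYT4 by -1.05 (adjusted p = 0.0209). STMN2 and SYT4 were undetected in SH-EP2 cells, so that their SH-EP2 term is background. Of the other genes named, the markers DBH (-1.19, adjusted p = 0.0216), VIM (-0.42, adjusted p = 0.023), SNAI2 (-1.38, adjusted p = 0.00425) and CD14 (2.51, adjusted p = 0.000255) and EVI1 (1.44, adjusted p = 0.000359) also passed, with DBH undetected in SH-EP2 cells, and these 5 were not recomputed under the alternatives. The RCOR2 value was -1.24 with neqc, -0.68 with normexp and -0.52 without background correction, all of which passed, and 2 of 18 alternatives did not keep its call, eBayes without the trend (adjusted p = 0.138) and the per-probe test (adjusted p = 0.237). Of 18 alternatives, 10 did not keep the interaction of ISL1 (between -0.66 and -0.52), of STMN2 (between -0.92 and -0.70) or of SYT4 (between -1.08 and -0.90). Single arrays were among them: STMN2 and SYT4 lost the call without any SH-SY5Y array. ISL1 lost it without either SH-SY5Y control array (-0.63 and -0.62) or SH-SY5Y shRNA replicate 2 (-0.56). Of the SH-EP2 arrays, the loss of control replicate 1 ended it for STMN2 (-0.79) and ISL1 (-0.52), of control replicate 2 for SYT4 (-0.90), of shRNA replicate 1 for STMN2 (-0.70) and ISL1 (-0.59), and of shRNA replicate 2 for ISL1 (-0.66) and SYT4 (-0.99).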

How the results depend on the processing

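The count of the 10 probes that passed in SH-SY5Y cells, 2 as reported, was 1 with neqc, with normexp, without background correction and with each line alone, and 0 without the intensity trend and in the per-probe test, each with 2 at an unadjusted p under 0.05. With each array left out it was 1 to 2, and it was 1 without SH-SY5Y control replicate 2 or TRPM7 shRNA replicate 1 or 2. The interaction count, 1 as reported, was 0 without the intensity trend and in the per-probe test. The cause was not tested. The count in SH-EP2 cells stayed at 0 and that between control lines at 2 under every alternative run, and no direction of NEUROG2 or POU4F1 reversed. Probes undetected in every group were given no fold under any setting.

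Replicate numbers are shared by the groups, but same-numbered arrays did not deviate together (over 14577 probes, r was -0.00447 for SH-EP2 and -0.111 for SH-SY5Y arrays). With the replicate block, 2 of the 10 probes passed in SH-SY5Y cells and 1 in the interaction, and 801 of all probes passed in SH-SY5Y cells instead of 999, 1136 in SH-EP2 cells instead of 1429 and 500 in the interaction instead of 662. The block took the call from DCX (adjusted p = 0.062) and HES6 (adjusted p = 0.0782) in SH-SY5Y cells and from SCN9A (adjusted p = 0.0585) in SH-EP2 cells. With SH-SY5Y pairs crossed, 1420 probes passed in SH-SY5Y cells. Over all probes the SH-SY5Y count was 64 without the intensity trend and 50 in the per-probe test, and the SH-EP2 count was 100 and 103, and 2587 with each line alone. The interaction count was 23 without the trend, 15 in the per-probe test, 1153 with normexp, 1248 without background correction and 1000 with pairs crossed. With each array left out the counts were 622 to 958 (SH-SY5Y), 675 to 1596 (SH-EP2) and 399 to 650 (interaction). Median scaling turned the split of the SH-SY5Y calls from 38.2% higher to 66.1% higher (553 higher, 284 lower), and that of the interaction from 43.4% to 62.9%. Signals near background limit what can be said of the 8 dim probes.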
